A study of Mus musculus with 26 samples.

Results

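The 40 genes described here carry the signal of tumour necrosis factor (TNF) receptors to the transcription factor NF-kB. They were chosen by name, from a list of the machinery. All 40 were among the 24848 genes in each of the 26 deposited tables, and all 40 passed the filter on low counts that left 13500 genes for testing. They comprise 5 Rel subunits of NF-kB, 6 members of the IkB family, 9 kinases and kinase adaptors, 7 TRAF and cIAP genes, 6 genes that add, read or remove ubiquitin, 5 genes of the death-inducing complex, and Malt1 and Bcl10, which link antigen receptors to the same kinases.

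Resting cells hold NF-kB dimers in the cytoplasm, bound by IkB proteins. A ligated TNF receptor recruits TRAF and cIAP proteins and RIPK1, ubiquitin chains gather on them, and the IKK kinases assembled there mark the IkB proteins for destruction, so that the dimers enter the nucleus. A slower, non-canonical arm frees the kinase NIK from TRAF3 and has p100, the product of Nfkb2, cut to p52. TNFR2, which regulatory T cells carry at high levels, lacks a death domain and signals through TRAF2 to both arms. NF-kB switches on genes of its own inhibitors, A20 (Tnfaip3) and IkBalpha (Nfkbia) among them.

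RNA was sequenced from CD4 T cells of C57BL/6 mice at d14 of experimental autoimmune encephalomyelitis (EAE), in which autoreactive T cells attack myelin as in multiple sclerosis. All mice received tamoxifen from d7 to d14. The icKO mice had the genotype Foxp3Cre-ERT2 x Tnfrsf1bFlox/Flox and the Ctrl mice had Foxp3Cre-ERT2 alone, so both carried the tamoxifen-inducible Cre in the Foxp3 locus. That locus is active in regulatory T cells (Treg), so the floxed gene of TNFR2 was targeted in Treg and not in conventional T cells (Tconv) of the same mice. Which exons the floxed allele loses is not given in the labels. Treg and Tconv cells were taken from either of 2 tissues, the central nervous system (CNS) and draining lymph nodes (dLN). Each of the 8 groups held 3 libraries, except CNS Tconv icKO and CNS Tconv Ctrl, which held 4 each. The labels name replicates as mice without saying more, so p-values measure the spread between these samples.

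In 25 of the libraries, expected counts summed to between 12.4 and 18.5 M each. The library labelled Tconv dLN icKO replicate 3 held 7.78 M counts over 6005 genes, against 11089 to 14259 genes in the others. Its count was 0 for 8 of the 40 genes, while among the other 25 libraries 1 of the 40, Tab3, reached 0 in any. Values below come from a fit of the other 25 libraries unless the fit of all 26 is named, so dLN Tconv icKO has 2 libraries. The file names of 5 CNS Tconv libraries carry the code of the opposite genotype, namely icKO replicates 2, 3 and 4 and Ctrl replicates 3 and 4. They were grouped by their labels, and whether the label or the file name is right is not known. No fit grouped them by file name. Without them the CNS Tconv groups hold 1 icKO and 2 Ctrl libraries. Foxp3 marked the Treg libraries, at 22.6 to 67.5 CPM (counts-per-million) of library total against 0.111 to 1.5 CPM in Tconv libraries. The CNS Treg libraries also held transcripts of other cells. All 16 monocyte and macrophage markers were detected, and their summed level was 4908 to 7276 CPM, against 353 to 936 CPM in CNS Tconv and 226 to 1061 CPM in dLN Treg libraries. Neutrophil markers summed to 132 to 1023 CPM in CNS Treg and to no more than 4.96 CPM in CNS Tconv libraries.

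The targeted gene, Tnfrsf1b (chr4:145213463-145246870, minus strand, GRCm38), had 509.5, 357 and 352 CPM in CNS Treg icKO libraries, against 454, 711 and 664 CPM in CNS Treg Ctrl libraries. From here on CPM are scaled with TMM factors, which offset differences in library composition. The 2 CNS groups overlapped, with a log2 fold change of -0.59 ± 0.16 (SE, adjusted p = 0.55, edgeR). In dLN Treg cells its mean was 619 ± 1.2 CPM for icKO and 795 ± 60.5 CPM for Ctrl (SD, n = 3 each). These 2 groups did not overlap, and the log2 fold change of -0.36 ± 0.16 did not pass the test (adjusted p = 1). Counts cover the whole gene, so transcripts that lack a deleted part may still be counted. The CNS Treg icKO libraries also held transcripts of other cells, with monocyte and macrophage markers at 4908 to 6400 CPM of library total. The part of either in the Tnfrsf1b values was not tested. In CNS Tconv cells Tnfrsf1b had 358, 269, 389.8 and 356 CPM in icKO libraries, against 229, 176, 199 and 229 CPM in Ctrl libraries. The groups did not overlap, and the gene was higher in icKO by 0.72 ± 0.14 on the log2 scale (SE, adjusted p = 0.00842), and adjusted p was 1 when all 26 libraries were fitted. Among dLN Tconv libraries it was at 0.07 ± 0.18 and did not pass.

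Per unit of length, the inhibitor gene Nfkbia was the most abundant of the 40, with a median of 433 TPM (transcripts-per-million) over the 25 libraries. Rbck1, which encodes HOIL-1 of the linear ubiquitin ligase complex LUBAC, followed with a median of 179.7 TPM. Rela, which encodes the p65 subunit, had 149 TPM, the initiator caspase gene Casp8 had 141 TPM and Bcl10 had 102.5 TPM. At the low end stood Traf3 with 12.5 TPM, Rel (c-Rel) with 9.04 TPM, the death-domain adaptor gene Fadd with 6.37 TPM and Tab3, a TAK1 adaptor, with 4.06 TPM. The ranges of Fadd and Tab3 over libraries, 4.59 to 10.4 and 0 to 7.02 TPM, overlapped each other.

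The 40 genes differed in how far their level moved between groups. The ratio of the highest to the lowest group mean in TPM was 4.70 for Nfkbid, 4.55 for Nfkbiz, 4.33 for Tab3, 4.29 for Tnfaip3 and 3.14 for Rel. At the other end it was 1.21 for Rbck1, 1.25 for the IKKbeta gene Ikbkb and 1.28 for Rela. Nfkbiz and Nfkbid encode IkBzeta and IkBNS, which act in the nucleus on NF-kB bound to DNA. Tnfaip3 encodes A20, an enzyme that edits ubiquitin chains and ends the signal. Mean Tnfaip3 was 418, 538 and 453 CPM in CNS Treg icKO, CNS Treg Ctrl and CNS Tconv icKO cells, and these neighbours in the order overlapped. CNS Tconv Ctrl cells stood next with 205 CPM, below all CNS Treg icKO libraries, and the 4 dLN groups had 125 to 174 CPM.

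**Figure D1:**
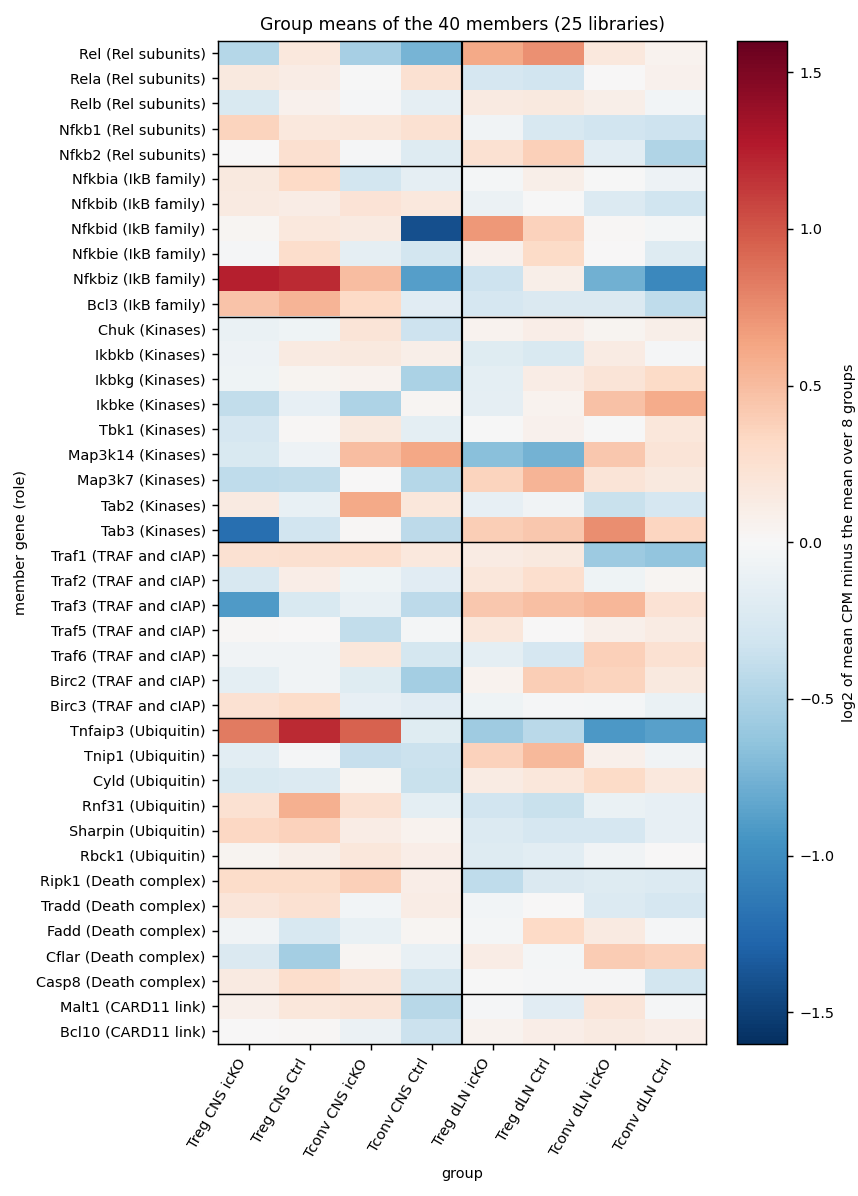
Mean level of the 40 genes in each of the 8 groups over 25 libraries, as the log2 of the mean CPM minus the mean of that value over the groups, with rows ordered by role and a line between CNS and dLN groups. Tnfaip3 and Nfkbiz are high in the CNS Treg columns, and Nfkbid is lowest in CNS Tconv Ctrl.

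The genotypes were compared first in Treg cells, in which the Foxp3 locus and its Cre are active. In CNS Treg cells none of the 40 genes passed the test. Among the genes tied to the non-canonical arm, Traf1, an adaptor that binds TRAF2, had a mean of 146 ± 6.57 CPM for icKO and 147 ± 12.9 CPM for Ctrl. The mean of Nfkb2 was 153 ± 8.05 CPM for icKO and 182 ± 40.2 CPM for Ctrl, and the gene of its partner subunit RelB had means of 71.0 ± 20.3 and 88.1 ± 17.7 CPM in the same order (SD, n = 3 each). The log2 fold changes were -0.01 for Traf1, -0.25 for Nfkb2, -0.31 for Relb, -0.15 for Map3k14, the gene of NIK, and -0.05 for the cIAP2 gene Birc3. The 95% interval was -0.35 to 0.33 for Traf1, -0.66 to 0.16 for Nfkb2 and -0.80 to 0.17 for Relb. Feedback inhibitors had log2 fold changes of -0.36 ± 0.28 for Tnfaip3 and -0.17 ± 0.17 for Nfkbia (SE).

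The 0 of 40 calls in CNS Treg cells stands beside 0% of all 13500 genes (0 called) and 0% in the fit of 26. At an unadjusted p under 0.05 there were 3 of 40, against 924 of the 13500, and DESeq2 and limma also called 0 of the 40. Those 3 were Traf2, the adaptor that TNFR2 binds, at -0.36 ± 0.13, Traf3, which holds NIK in check, at -0.67 ± 0.28, and Rnf31, which encodes the catalytic subunit HOIP of LUBAC, at -0.33 ± 0.15. Traf3 had 45.5, 18.2 and 24.2 CPM in icKO libraries, against 31.9, 55.5 and 52.0 CPM in Ctrl libraries. Here icKO replicate 1 lay within the Ctrl range and the other 2 lay below it. The median log2 fold change of the 40 genes was -0.09, beside -0.00 over all genes, with 9 of 40 above 0. In bulk RNA, fewer cells of a type and less RNA per cell cannot be told apart.

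In dLN Treg cells 0 of the 40 genes were called by edgeR, beside 0% of all genes in either fit. None of the 40 had an unadjusted p under 0.05, against 149 of 13500, and DESeq2 and limma called 0. Log2 fold changes ran from -0.43 to 0.33, with a median of -0.04. The mean of Nfkb2 was 180.2 ± 17.4 CPM for icKO and 198 ± 32.9 CPM for Ctrl. Log2 fold changes of the other genes of that arm were -0.02 for Relb, 0.09 for Map3k14, -0.03 for Traf1 and -0.04 for Birc3, and those of the feedback inhibitors were -0.14 for Tnfaip3 and -0.12 for Nfkbia. In dLN Tconv cells, with 2 icKO and 3 Ctrl libraries, edgeR, DESeq2 and limma again called 0 of 40, beside 0% of all genes in either fit. There 0 of 40 had an unadjusted p under 0.05, against 189 of 13500. There Nfkb2 was at 0.31, Relb at 0.14, Map3k14 at 0.22, Traf1 at 0.05, Birc3 at 0.08, Tnfaip3 at -0.05 and Nfkbia at 0.07 on the log2 scale. Of the wider lists, 0 of 42 other pathway genes, 0 of 40 NF-kB target genes and 0 of 14 TNF receptor family genes were called in these 3 comparisons.

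In CNS Tconv cells, whose own receptor gene was not the target, 5 of the 40 genes passed the test between genotypes. Among them 3 inducible brakes and regulators of NF-kB were higher in icKO mice: Tnfaip3 by 1.15 ± 0.24, Nfkbiz by 1.38 ± 0.31 and Nfkbid by 1.56 ± 0.36 on the log2 scale (SE). Casp8 was higher by 0.47 ± 0.13, and Ikbke, the gene of the IKK-related kinase IKKepsilon, had a log2 fold change of -0.52 ± 0.12. These calls did not hold in all fits, as given below with the libraries they rest on.

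The promoters of the 4 called genes that had a window are shown, since NF-kB is known to bind near the start sites of many genes that it regulates; Nfkbiz had none. Windows run from 250 bases before to 50 bases after a start site, 5′ to 3′ on the gene's strand, from RefSeq on build GRCm38.p6, and capitals mark matches to the 10-base NF-kB (kappaB) consensus on either strand. The Tnfaip3 window, chr10:19015361-19015660 on the minus strand, held 2 separate matches, and the window of its second start site held none. The Nfkbid window, chr7:30422156-30422455 on the plus strand, is that of its second start site and also held 2; the windows of its other 2 sites held none. The Casp8 window, chr1:58802252-58802551 on the plus strand, held no match, and the Ikbke window, chr1:131279514-131279813 on the minus strand, held none. The annotated Casp8 gene starts at chr1:58795374, upstream of the Casp8 window, and the sequence at that start was not searched.
Tnfaip3: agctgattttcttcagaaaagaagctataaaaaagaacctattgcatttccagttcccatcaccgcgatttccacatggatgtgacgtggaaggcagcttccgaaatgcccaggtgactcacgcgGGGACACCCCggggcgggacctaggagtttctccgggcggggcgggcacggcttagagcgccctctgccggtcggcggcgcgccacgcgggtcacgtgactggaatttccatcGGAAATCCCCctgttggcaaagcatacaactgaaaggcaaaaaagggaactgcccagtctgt
Nfkbid: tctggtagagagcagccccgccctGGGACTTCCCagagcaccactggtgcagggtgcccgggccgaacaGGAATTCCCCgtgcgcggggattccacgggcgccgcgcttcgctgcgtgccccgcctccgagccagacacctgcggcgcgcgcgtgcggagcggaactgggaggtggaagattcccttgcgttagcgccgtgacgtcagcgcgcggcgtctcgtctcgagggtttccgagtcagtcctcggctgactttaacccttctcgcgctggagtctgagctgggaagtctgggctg
Casp8: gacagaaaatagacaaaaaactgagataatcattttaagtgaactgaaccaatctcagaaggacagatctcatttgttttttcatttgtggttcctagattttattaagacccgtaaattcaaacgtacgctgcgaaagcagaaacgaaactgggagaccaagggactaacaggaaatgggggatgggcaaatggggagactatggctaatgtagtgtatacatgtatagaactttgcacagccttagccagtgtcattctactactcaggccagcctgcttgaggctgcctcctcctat
Ikbke: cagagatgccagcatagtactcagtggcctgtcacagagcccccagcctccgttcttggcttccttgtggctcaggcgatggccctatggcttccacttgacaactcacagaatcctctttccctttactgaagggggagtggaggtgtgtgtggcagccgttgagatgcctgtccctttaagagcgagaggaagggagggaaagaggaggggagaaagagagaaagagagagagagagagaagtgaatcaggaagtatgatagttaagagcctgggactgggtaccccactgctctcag
Of the 33 genes among the 40 that had a window, 12 (36.4%) held at least 1 match, beside 1304 of 10564 tested genes (12.3%). A match is a description of the letters and does not show binding.

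Tnfaip3 had 378, 304, 609 and 520.2 CPM in CNS Tconv icKO libraries, against 116, 170.4, 199 and 333 CPM in Ctrl libraries. Only Ctrl replicate 4, at 333 CPM, reached into the icKO range. By the codes in the file names, icKO replicates 2, 3 and 4 would be Ctrl, and Ctrl replicates 3 and 4 would be icKO. Grouped so, the libraries of the genotypes would overlap more widely, and the difference under those codes was not tested. The adjusted p was 0.0133, and over 33 alternative fits it ran from 0.000256 to 0.325. Nfkbiz had 42.3, 46.8, 92.1 and 79.0 CPM in icKO libraries, against 28.02, 13.8, 24.5 and 33.5 CPM in Ctrl libraries. The 2 groups did not overlap (adjusted p = 0.0172, from 0.000864 to 0.347 over the alternatives). Nfkbid had 61.4, 33.6, 103 and 63.2 CPM in icKO libraries, against 11.7, 15.6, 14.2 and 47.8 CPM in Ctrl libraries. Again Ctrl replicate 4 stood apart from the other Ctrl libraries and lay above icKO replicate 2 (adjusted p = 0.0236, from 0.000467 to 0.347).

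Casp8, which encodes the caspase that starts death-receptor apoptosis, had 222, 214, 223 and 268 CPM in icKO libraries, against 179, 166, 168 and 156 CPM in Ctrl libraries. All icKO libraries lay above all Ctrl libraries (adjusted p = 0.0439, from 0.0108 to 0.552). Ikbke had 70.1, 83.7, 76.7 and 97.7 CPM in icKO libraries, against 128, 91.6, 117 and 134 CPM in Ctrl libraries. Ctrl replicate 2 and icKO replicate 4 overlapped, and the other libraries kept apart (adjusted p = 0.0232, from 0.00160 to 1).

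**Figure D2:**
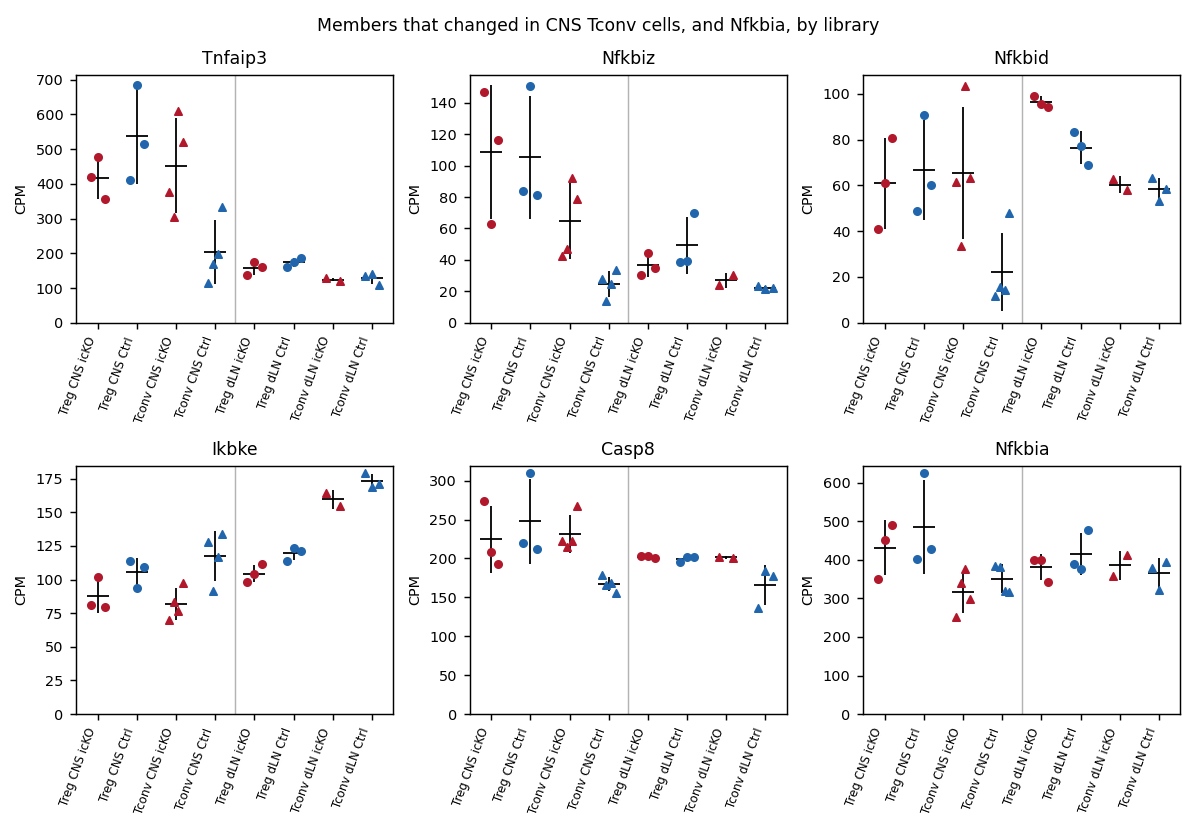
CPM of the 5 genes that changed in CNS Tconv cells, and of Nfkbia, in every library of the 25; red is icKO, blue Ctrl, circles Treg, triangles Tconv, and bars mark the mean and SD. The CNS Tconv icKO libraries sit above the Ctrl ones for Nfkbiz and Casp8 without overlap, while for Nfkbia the 2 groups mix.

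Nfkbia and the non-canonical genes Nfkb2, Relb, Map3k14, Traf1 and Birc3 did not pass the test in CNS Tconv cells. The mean of Nfkbia was 317 ± 53.9 CPM for icKO and 351 ± 37.7 CPM for Ctrl (SD, n = 4 each), a log2 fold change of -0.15. Log2 fold changes of the other genes were 0.18 for Nfkb2, 0.13 for Relb, -0.12 for Map3k14, 0.10 for Traf1 and 0.04 for Birc3. With 4 genes higher and 1 lower of 40, the shares were 10% and 2.5%, beside 1.59% and 1.53% of all genes. At an unadjusted p under 0.05 there were 13 of the 40 and 2426 of 13500. Among the 8 of these that did not pass, the icKO and Ctrl libraries did not overlap for Rela, Bcl3, Tab2 and Rnf31, which were chosen after their values were seen. The share of all genes whose libraries did not overlap here was not counted, so this separation cannot be set against it. Rela, the gene of p65, had a mean of 237 ± 11.5 CPM for icKO and 283 ± 13.5 CPM for Ctrl (SD, n = 4 each), a log2 fold change of -0.26 ± 0.09 (SE, adjusted p = 0.126). Bcl3 was at 0.49, Tab2 at 0.42 and Rnf31 at 0.41 on the same scale. Of the 40, 31 had a log2 fold change above 0 and the median was 0.20, beside a median of 0 over all genes.

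All 5 calls ended in the fit of 26, where 0 of the 40 and 0.107% of all genes were called, in a model of these 2 groups alone, and in the fit without icKO replicate 3. Without that library the log2 fold changes were 0.98 for Tnfaip3, 1.18 for Nfkbiz and 1.25 for Nfkbid. Without Ctrl replicate 1, 2 or 3 or icKO replicate 1 or 4, 2 or 3 of the 40 were called. In the 25 fits that left out 1 library, Tnfaip3 kept its call in 24, Nfkbiz in 23, Ikbke in 21, Nfkbid in 20 and Casp8 in 9. Without the 5 libraries whose file names disagree, Tnfaip3 (log2 fold change 1.41) and Nfkbid (2.18) were called and the other 3 were not; the 1 icKO library left is then assumed to vary like the other groups.

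Among wider lists in the same comparison, 2 of 42 other pathway genes were higher and 0 lower. They were Azi2, a TBK1 adaptor gene, at 0.52, and Map3k8, the gene of the kinase TPL2, at 1.47 on the log2 scale. Of 40 NF-kB target genes 4 were higher and 0 lower: Il2ra, the IL-2 receptor alpha chain, at 1.19, Tnfrsf4 (OX40) at 0.88, Tnfrsf9 (4-1BB) at 1.97 and the survival gene Bcl2a1d at 1.13. Of 14 receptors of the TNF family, 3 were higher and 1 lower, Tnfrsf1b at 0.72 and Cd27 at -1.08 besides the 2 named. In the fit of 26 every call of these 3 lists ended, with adjusted p of 0.152 for Cd27 and above for the others. Beside these differences, the 16 monocyte and macrophage markers summed to 636 to 936 CPM for icKO and 353 to 659 CPM for Ctrl, and 1 of 16 was called higher. The 5 Treg markers, Il2ra among them, summed to 206 to 374 CPM for icKO and 101 to 156 CPM for Ctrl, and 2 of 5 were called higher. Foxp3 itself had 0.111 to 0.392 CPM for icKO and 0.379 to 1.5 CPM for Ctrl. The part of other cells in the 5 changes was not tested.

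Whether the genotype difference itself differed between Treg and Tconv cells of the CNS was tested as an interaction. By edgeR 0 of the 40 passed, beside 0.185% of all genes with 25 libraries and 0% with 26; at an unadjusted p under 0.05 there were 10 of 40 and 2014 of 13500, DESeq2 called 4 and limma 0. The difference was -1.51 ± 0.37 for Tnfaip3 (adjusted p = 0.0706), -1.69 ± 0.54 for Nfkbid and -1.34 ± 0.46 for Nfkbiz on the log2 scale (SE, Treg minus Tconv). The median over the 40 was -0.42, beside -0.02 over all genes. Leaving out CNS Tconv Ctrl replicate 4 gave 3 calls, and leaving out CNS Treg icKO replicate 1 gave 2. Between CNS and dLN Tconv cells the genotype difference passed for 0 of 40 by edgeR, DESeq2 and limma, beside 0% of all genes in either fit. At an unadjusted p under 0.05 there were 4 of 40, against 1105 of 13500. There Tnfaip3 was at 1.19 ± 0.40 and Nfkbid at 1.5 ± 0.59 (SE, CNS minus dLN).

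**Figure D3:**
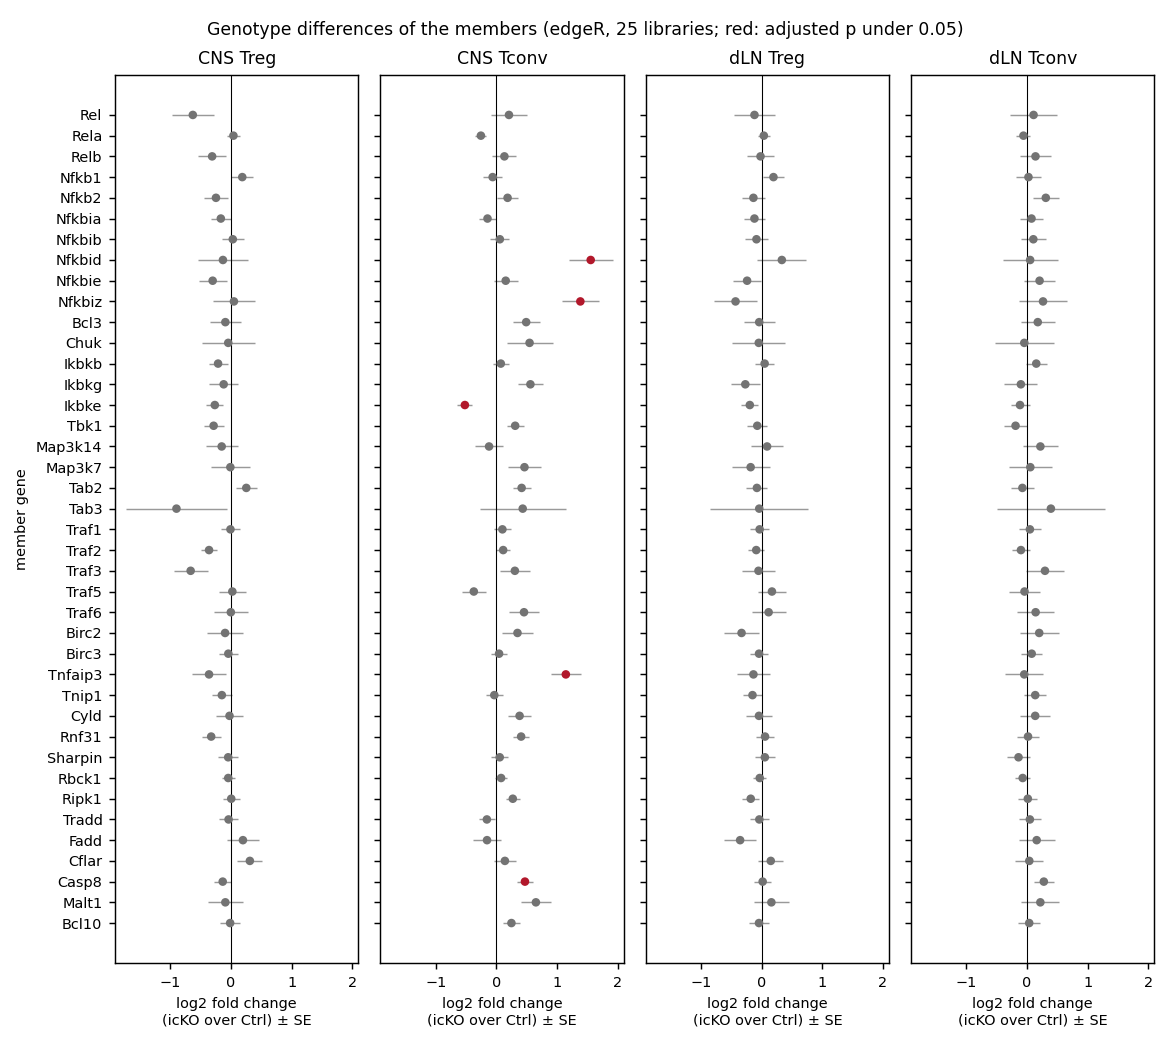
Log2 fold change (icKO over Ctrl) of each of the 40 genes with its SE in the 4 populations, over 25 libraries; red points have an adjusted p under 0.05 in edgeR. The 5 red points, 4 to the right and 1 to the left, all lie in the CNS Tconv panel.

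The tissue comparison asked how the same cells differed between the inflamed CNS and the draining nodes. In CNS Treg cells the ubiquitin-handling genes Tnfaip3, Rnf31 and Sharpin, the kinase gene Ripk1, Rela and the nuclear IkB genes Nfkbiz and Bcl3 were higher than in dLN Treg cells in both genotypes. Tnip1, whose product ABIN1 binds A20 and ubiquitin, was lower in both. Traf2, Traf3 and Rel were lower in icKO, and Map3k7, the gene of the kinase TAK1, was lower in Ctrl. These comparisons set the CNS Treg libraries, with their macrophage and neutrophil transcripts, against dLN Treg libraries with 226 to 1061 CPM of the macrophage markers.

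Tnfaip3 had 420.2, 478 and 357 CPM in CNS Treg icKO libraries, against 137, 176 and 161 CPM in dLN Treg icKO libraries. In Ctrl mice it had 412, 686 and 516 CPM in CNS Treg libraries, against 160.4, 175 and 186 CPM in dLN Treg libraries. Every CNS library lay above every dLN library. The log2 fold change was 1.40 ± 0.28 in icKO and 1.63 ± 0.28 in Ctrl (SE, adjusted p = 0.00125 and 0.000411), and Tnfaip3 was the 1 gene of the 40 also called in the fit of 26 in each genotype.

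Rnf31 and Sharpin encode HOIP and SHARPIN, which with HOIL-1 form LUBAC and attach linear ubiquitin chains at TNF receptors. Rnf31 had 93.4, 77.9 and 89.2 CPM in CNS Treg icKO libraries, against 54.1, 68.5 and 55.3 CPM in dLN Treg icKO libraries. Rnf31 had 119.8, 117 and 90.4 CPM in CNS Treg Ctrl libraries, against 55.4, 55.6 and 60.2 CPM in dLN Treg Ctrl libraries. Neither pair overlapped, and the log2 fold change was 0.55 ± 0.16 in icKO and 0.93 ± 0.16 in Ctrl (SE, adjusted p = 0.0140 and 0.000279). Sharpin was higher by 0.54 in icKO and by 0.64 in Ctrl, while Rbck1, the third LUBAC gene, was at 0.25 and 0.27 in the same order without passing.

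The kinase gene Ripk1, whose product is the scaffold of the TNF receptor complex, had 159.97, 168 and 177 CPM in CNS Treg icKO libraries, against 92.9, 98.4 and 120.0 CPM in dLN Treg icKO libraries. The groups did not overlap, and the log2 fold change was 0.70 ± 0.14 in icKO and 0.52 ± 0.14 in Ctrl (SE). Rela was higher by 0.43 in either genotype. Nfkbiz was higher by 1.57 in icKO and 1.10 in Ctrl, and Bcl3, which binds p50 and p52 dimers in the nucleus, by 0.73 in icKO and 0.78 in Ctrl. Tnip1 was at -0.53 in either genotype on the same log2 scale.

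Traf3 had the largest lower value among the calls: it had 45.5, 18.2 and 24.2 CPM in CNS Treg icKO libraries, against 71.8, 73.6 and 77.7 CPM in dLN Treg icKO libraries. The log2 fold change was -1.34 ± 0.28 in icKO (SE, adjusted p = 0.00178), and the Ctrl value of -0.73 ± 0.28 did not pass. In icKO Rel was at -1.07 and Traf2 at -0.44. In Ctrl mice the mean of Map3k7 was 59.99 ± 20.6 CPM for CNS and 114 ± 10.8 CPM for dLN Treg cells (SD, n = 3 each), a log2 fold change of -0.93. Its value in icKO was -0.76 ± 0.32 (SE) and did not pass. Whether these differences depend on genotype was not tested.

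Read against the background, the 40 genes moved between tissues about as often as other genes in Treg cells. In icKO 7 of 40 were higher (17.5%) and 4 lower (10%), beside 13% and 9.39% of all genes. In Ctrl 7 were higher (17.5%) and 2 lower (5%), beside 13.2% and 8.59%. The fit of 26 called 1 of 40 in each genotype, beside 5.12% of all genes in icKO and 5.74% in Ctrl. The 2 comparisons share no library, but they come from the same model with a pooled spread, and both CNS Treg groups hold macrophage transcripts. In both, 8 genes were called in the same direction, which is 8 of the 11 called in icKO and 8 of the 9 called in Ctrl. The share of all genes called in both was not counted, so the overlap cannot be set against it. Without CNS Treg Ctrl replicate 2 the Ctrl count was 3, without dLN Treg Ctrl replicate 1 or 2 it was 4 or 5, and without CNS Treg icKO replicate 3 or dLN Treg icKO replicate 3 the icKO count was 7. Tnfaip3, Ripk1, Rela, Nfkbiz and Traf3 kept their icKO calls, and Rnf31, Tnfaip3 and Rela their Ctrl calls, in each of the 25 fits that left out 1 library.

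Beside these values, 15 of the 16 monocyte and macrophage markers were higher in CNS than in dLN Treg cells of icKO mice, and 14 of 16 in Ctrl mice. All 9 microglial markers were higher in both genotypes, at a summed 2012 to 2699 CPM in CNS Treg against 96.0 to 149 CPM in dLN Treg libraries. Other pathway genes were called as well. Of 42, 7 were higher and 2 lower in icKO, and 9 were higher and 5 lower in Ctrl. Irak2, a kinase gene of Toll-like receptor signalling, was at 1.21 in icKO and 1.40 in Ctrl, and Rc3h1, whose product Roquin-1 marks mRNAs for decay, at -1.07 and -1.23 in the same order. Of 40 NF-kB targets, 14 were higher and 4 lower in icKO, and 12 were higher and 4 lower in Ctrl. The AP-1 gene Junb was at 1.66 in icKO and 1.96 in Ctrl, and the chemokine gene Ccl5 at 4.82 in icKO and 3.46 in Ctrl. Of 14 receptors, 4 were higher and 1 lower in icKO, and 4 were higher and 0 lower in Ctrl, with Tnfrsf18 (GITR) at 1.08 in icKO and 0.99 in Ctrl. In the fit of 26, Junb and Ccl5 passed in both genotypes, and Irak2, Rc3h1 and Tnfrsf18 in neither. Of 10 CD8 and NK cell markers, 8 were higher in icKO and 7 in Ctrl. The part of RNA of these other cells in the tissue differences was not tested.

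**Figure D4:**
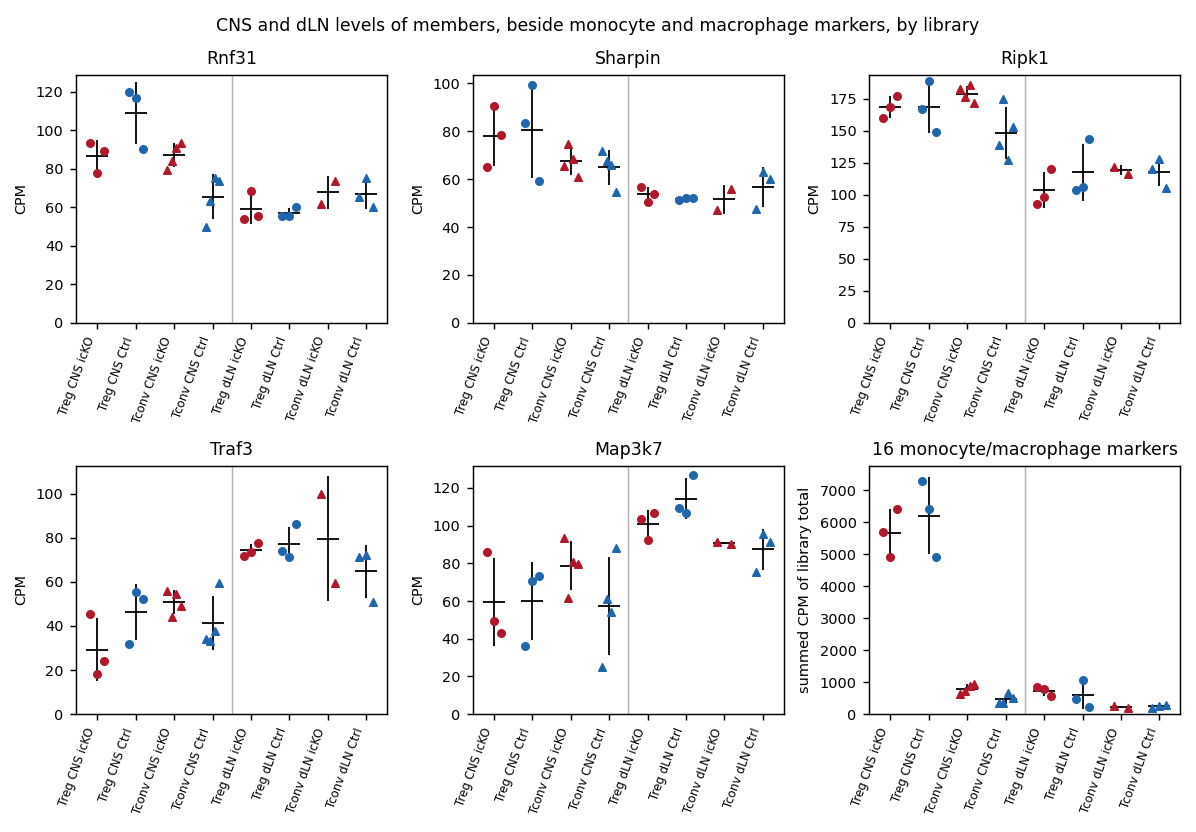
CPM of 5 genes that differed between CNS and dLN Treg cells, and the summed CPM of 16 monocyte and macrophage markers, in each of 25 libraries; red is icKO, blue Ctrl, circles Treg, triangles Tconv, and bars mark the mean and SD. Beside the dLN Treg columns, Rnf31, Sharpin and Ripk1 are high and Traf3 and Map3k7 low in CNS Treg columns, where the marker sum is 4908 to 7276 CPM. The mean of Ripk1 is highest in CNS Tconv icKO (179 CPM) and that of Map3k7 lowest in CNS Tconv Ctrl (57.2 CPM). In the CNS Tconv columns the marker sum is 353 to 936 CPM.

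In CNS Tconv cells the TRAF gene Traf1 was higher and the kinase gene Ikbke lower than in dLN Tconv cells of both genotypes, and the remaining calls were made in 1 genotype each. Whether the tissue difference itself differed between genotypes is the interaction given above for CNS and dLN Tconv cells, which 0 of the 40 passed. Traf1 had 124, 139, 148 and 179.8 CPM in CNS Tconv icKO libraries, against 77.5 and 86.3 CPM in the 2 dLN Tconv icKO libraries. In Ctrl mice Traf1 had 158, 149, 134 and 109.6 CPM in CNS Tconv libraries, against 88.4, 60.5 and 88.7 CPM in dLN Tconv libraries. All CNS libraries lay above all dLN libraries, at a log2 fold change of 0.85 ± 0.18 in icKO and 0.80 ± 0.15 in Ctrl (SE, adjusted p = 0.00185 and 0.00211). Ikbke was at -0.96 ± 0.14 in icKO and -0.56 ± 0.13 in Ctrl.

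In icKO mice Tnfaip3 was also higher in CNS Tconv cells, by 1.86 ± 0.32, as were Nfkbiz (1.27 ± 0.39), Tab2, a TAK1 adaptor gene (0.95 ± 0.19), and Ripk1 (0.59 ± 0.15). In Ctrl mice Nfkb1, the gene of p50 and its precursor p105, was higher by 0.58 ± 0.17, while Nfkbid, at -1.39 ± 0.38, and Ikbkg, the gene of the IKK subunit NEMO, at -0.81 ± 0.22, were lower (log2 scale, SE). For icKO, 5 of 40 were higher (12.5%) and 1 lower (2.5%), beside 7.76% and 6.27% of all genes, and the fit of 26 called 1 gene, beside 9.12%. That gene was Cflar, of a caspase-8 inhibitor, at -1.06 (adjusted p = 0.0276, edgeR). It was named after its values were seen and is not among the 6, so all 6 calls ended in that fit, with Tab2 at -0.028. Cflar had 344 CPM of library total in dLN Tconv icKO replicate 3, the library otherwise left out. Replicates 1 and 2 had 124 and 96.7 CPM. In Ctrl 2 were higher (5%) and 3 lower (7.5%), beside 5.99% and 2.93%, and the fit of 26 called 0, beside 1.16%. At an unadjusted p under 0.05 there were 18 of 40 in Ctrl, against 3382 of 13500, and DESeq2 called 8 and limma 6. The icKO comparison shares its CNS libraries with the genotype comparison above and its dLN group has 2 libraries. The CNS groups of both genotypes hold libraries whose file names carry the opposite genotype code, as given above.

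Without dLN Tconv icKO replicate 1 the icKO count was 2. In Ctrl mice leaving out CNS Tconv replicate 4 raised the count to 14, and leaving out any other of the 7 libraries compared lowered it to 2 or 3. Traf1 and Ikbke kept their Ctrl calls in all 25 such fits. The 42 other pathway genes gave 8 higher and 2 lower in icKO, and 2 higher and 0 lower in Ctrl. The 40 targets gave 16 higher and 4 lower in icKO, Il2ra at 3.07 and the chemokine receptor gene Cxcr5 at -3.65 among them, and 6 higher and 2 lower in Ctrl, with Cxcr5 at -2.32. The 14 receptors gave 5 higher and 1 lower in icKO, and 2 higher and 1 lower in Ctrl, with Tnfrsf18 at 1.85 in icKO and 1.45 in Ctrl. In the fit of 26, Cxcr5 passed in both genotypes, Tnfrsf18 in Ctrl, and Il2ra did not in icKO. Microglial markers were higher in CNS Tconv cells for 4 of 9 in icKO and 5 of 9 in Ctrl, and Treg markers for 3 of 5 in icKO and 1 of 5 in Ctrl; their part was not tested.

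Whether the tissue difference of Ctrl mice differed between Treg and Tconv cells was tested as an interaction, and 1 of the 40 passed, Rnf31. The log2 fold change of Rnf31 (CNS over dLN) was larger in Treg than in Tconv cells by 0.97 ± 0.21 (SE). Its adjusted p by edgeR was 0.0120, and it ran from 0.000389 to 0.592 over 33 alternatives. In Tconv cells Rnf31 had 49.7, 63.5, 75.4 and 73.8 CPM in CNS Ctrl libraries, against 65.6, 75.5 and 60.2 CPM in dLN Ctrl libraries, which overlapped. The 1 call of 40 (2.5%) stands beside 2.46% of all genes higher and 1.09% lower. In the fit of 26 it was 0 of 40, beside 0.0996%, and the 2 tissue groups of Treg cells differ in macrophage transcripts as given above. Leaving out CNS Tconv Ctrl replicate 4 gave 5 calls of 40, and the call of Rnf31 held in all 25 fits that left out 1 library.

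Between Treg and Tconv cells of the draining nodes, Traf1 was higher in Treg cells of both genotypes, while Map3k14, the gene of NIK, and Ikbke were lower. In Ctrl mice Nfkb2, Tnip1 and Nfkbiz were also higher in Treg cells, and Rela was lower. Whether these dLN differences depend on genotype was not tested. Birc3, at -0.04 ± 0.17 in icKO and 0.08 ± 0.15 in Ctrl, and Relb did not pass in either genotype. The windows of Nfkb2 and Traf1, both higher in Treg cells of Ctrl mice, are shown as examples. The first Nfkb2 window, chr19:46304487-46304786 on the plus strand, held 3 kappaB matches, 2 of which overlap and are printed as 1 run. The windows of its other start sites, which overlap each other, held 2 and 1. The Traf1 window, chr2:34961723-34962022 on the minus strand, held none. Tnip1, also higher in Ctrl, is not shown, and its window held 3 overlapping matches.
Nfkb2: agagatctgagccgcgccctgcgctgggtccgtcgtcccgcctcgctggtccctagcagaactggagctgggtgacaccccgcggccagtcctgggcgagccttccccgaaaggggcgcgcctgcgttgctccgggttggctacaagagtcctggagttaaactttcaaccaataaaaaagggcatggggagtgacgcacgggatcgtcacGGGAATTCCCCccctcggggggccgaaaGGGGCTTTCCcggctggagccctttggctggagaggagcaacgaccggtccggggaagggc
Traf1: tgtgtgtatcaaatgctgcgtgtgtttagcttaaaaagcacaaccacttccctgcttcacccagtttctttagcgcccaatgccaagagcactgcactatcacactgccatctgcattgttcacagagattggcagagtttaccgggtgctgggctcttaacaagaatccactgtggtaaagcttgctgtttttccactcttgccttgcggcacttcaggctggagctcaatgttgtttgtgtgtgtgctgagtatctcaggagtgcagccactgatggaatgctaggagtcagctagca

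Nfkb2 had 199, 165 and 230 CPM in dLN Treg Ctrl libraries, against 132, 86.2 and 109.7 CPM in dLN Tconv Ctrl libraries. All Treg libraries lay above all Tconv libraries, a log2 fold change of 0.86 ± 0.20 (SE, adjusted p = 0.00556), and this was the 1 call of the fit of 26. In icKO mice Nfkb2 averaged 180.2 ± 17.4 CPM in Treg (SD, n = 3), against 126 and 146 CPM in the 2 Tconv libraries, a log2 fold change of 0.41 ± 0.22 (SE) that did not pass. Traf1 had 140.4, 130.4 and 132 CPM in dLN Treg icKO libraries, against 77.5 and 86.3 CPM in Tconv. For Ctrl mice the values were 129.8, 121 and 161 CPM in Treg, against 88.4, 60.5 and 88.7 CPM in Tconv libraries. Neither pair overlapped, and the log2 fold change was 0.71 ± 0.18 in icKO and 0.80 ± 0.16 in Ctrl (SE, adjusted p = 0.0133 and 0.00187).

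Map3k14 was lower in Treg cells, at 27.4, 27.2 and 21.4 CPM in dLN Treg icKO libraries, against 53.4 and 54.8 CPM in Tconv. In Ctrl mice Map3k14 had 23.1, 24.5 and 23.9 CPM in dLN Treg libraries, against 38.3, 61.8 and 39.2 CPM in Tconv libraries. Treg libraries were lower without overlap, at a log2 fold change of -1.09 ± 0.29 in icKO and -0.96 ± 0.27 in Ctrl (SE). Ikbke was at -0.61 ± 0.15 in icKO and -0.53 ± 0.14 in Ctrl. In Ctrl mice Tnip1 was at 0.57, Nfkbiz at 1.13 and Rela at -0.37. Relb, whose product pairs with p52, did not pass and was at 0.05 ± 0.26 in icKO and 0.21 ± 0.23 in Ctrl (log2, SE).

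In icKO 1 of 40 was higher (2.5%) and 2 lower (5%), beside 5.47% and 4.5% of all genes, and the fit of 26 called 2, beside 3.99%. They were Map3k14 and Rela, which is not among the 3. The library that the fit of 26 adds had 142 CPM of library total for Map3k14 and 610 CPM for Rela. The other 2 dLN Tconv icKO libraries had 53.4 and 54.8 CPM for Map3k14, and 229 and 249 CPM for Rela. In that fit the icKO values of Traf1 and Ikbke changed sign, to -0.029 and 0.010 on the log2 scale. In Ctrl 4 were higher (10%) and 3 lower (7.5%), beside 5.97% and 5.47%, and the fit of 26 called 1, beside 1.83%. The 3 icKO calls were all among the 7 Ctrl calls. The 2 comparisons share no library but come from the same model with a pooled spread, and the share of all genes called in both was not counted. Leaving out dLN Tconv icKO replicate 1 or 2 left 0 or 1 icKO call. Leaving out any Ctrl library other than dLN Treg replicate 2 lowered the Ctrl count to between 2 and 4, and Traf1 kept its Ctrl call in all 25 fits. Of 40 NF-kB targets, 10 were higher and 1 lower in icKO and 13 higher and 2 lower in Ctrl. Il2ra, at 4.63 in icKO and 4.12 in Ctrl, and Tnfrsf4, at 3.46 and 3.10 in the same order, are genes by which Treg cells are known. Of 14 receptors, 4 were higher and 2 lower in icKO and 4 higher and 1 lower in Ctrl, with Tnfrsf1b itself at 2.25 and 2.68. Of 42 other pathway genes, 3 were higher and 5 lower in icKO and 4 higher and 5 lower in Ctrl, with Peli1, a ubiquitin ligase gene, at -0.78 and -0.75. In the fit of 26, Il2ra, Tnfrsf4 and Tnfrsf1b passed in both genotypes and Peli1 in neither. Of 10 CD8 and NK cell markers, 5 were lower in Treg than in Tconv cells of either genotype, and of 16 monocyte and macrophage markers 1 was higher in icKO and 0 in Ctrl; their part was not tested.

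**Figure D5:**
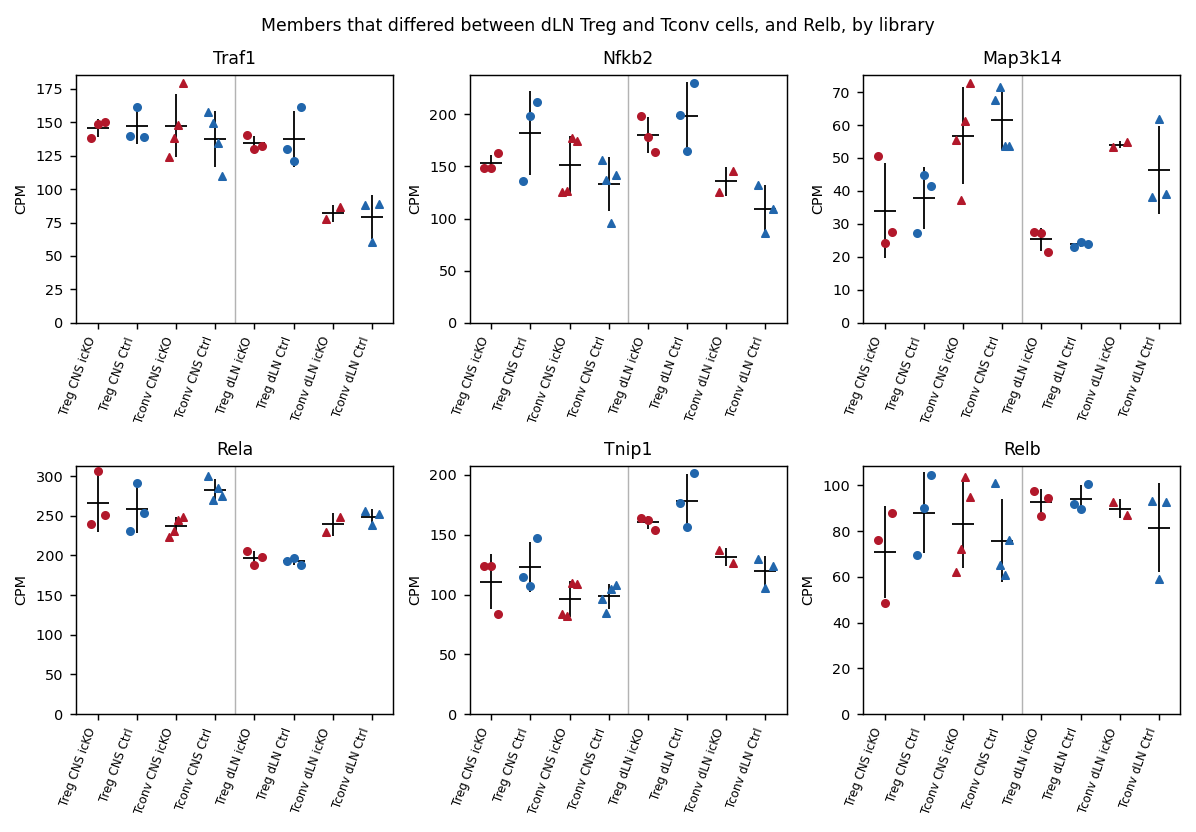
CPM of Traf1, Nfkb2, Map3k14, Rela and Tnip1, and of Relb, in each of 25 libraries; red is icKO, blue Ctrl, circles Treg, triangles Tconv, and bars mark the mean and SD. In the dLN columns, Traf1 is higher and Map3k14 lower in Treg than in Tconv libraries without overlap.

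In the CNS of Ctrl mice 4 of the 6 genes of the IkB family were higher in Treg than in Tconv cells. Nfkbiz was higher by 2.08 ± 0.33, Nfkbid by 1.58 ± 0.38, Bcl3 by 0.73 ± 0.24 and Nfkbia by 0.47 ± 0.16 on the log2 scale (SE). Nfkbiz had 83.5, 151 and 81.4 CPM in CNS Treg Ctrl libraries, against 28.02, 13.8, 24.5 and 33.5 CPM in CNS Tconv Ctrl libraries, without overlap (adjusted p = 0.000138). Tnfaip3 was higher by 1.39, Rnf31 by 0.73, Casp8 by 0.57, Birc3 by 0.47 and Rel by 0.91. The 9 of 40 higher (22.5%) and 0 lower stand beside 10.8% and 7.06% of all genes. In the fit of 26, 2 of 40 were called, Nfkbiz and Tnfaip3, beside 6.14%. The CNS Tconv libraries here and in the icKO comparison below were grouped by label. File names of Ctrl replicates 3 and 4 and icKO replicates 2, 3 and 4 carry the opposite genotype code.

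In CNS cells of icKO mice edgeR called 0 of the 40 between Treg and Tconv, beside 12.4% of all genes, and 0 in the fit of 26, beside 3.37%. At an unadjusted p under 0.05 there were 7 of 40 and 3522 of 13500, DESeq2 called 4 and limma 0. Here Nfkbiz averaged 109 ± 42.4 CPM in Treg (SD, n = 3) and 65.0 ± 24.4 CPM in Tconv cells (SD, n = 4), a log2 fold change of 0.74 ± 0.32 (SE). Tnfaip3 averaged 418 ± 60.5 and 453 ± 138 CPM in the same order, a log2 fold change of -0.11 ± 0.26 (SE). The CNS interaction above is the test of the change between genotypes, and none of the 40 passed it. Leaving out CNS Treg icKO replicate 1 gave 5 calls here, and in Ctrl mice leaving out CNS Treg replicate 2 lowered the count to 4, while Nfkbiz, Nfkbid, Tnfaip3 and Rnf31 kept their Ctrl calls in all 25 fits and Rel in 5.

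Other lists were called in both genotypes of the CNS. Of 40 NF-kB targets, 12 were higher and 2 lower in icKO and 15 higher and 1 lower in Ctrl, with Ebi3, a cytokine subunit gene that Treg cells express, at 3.55 in icKO and 2.79 in Ctrl. Of 14 receptors, 7 were higher and 0 lower in either genotype, with Tnfrsf18 at 1.52 in icKO and 1.83 in Ctrl. Of 42 other pathway genes, 4 were higher and 4 lower in icKO and 6 higher and 2 lower in Ctrl. Ebi3 and Tnfrsf18 also passed in the fit of 26 in both genotypes. Beside these values, 15 of 16 monocyte and macrophage markers, 7 of 9 microglial markers and 5 of 6 neutrophil markers were higher in CNS Treg than in CNS Tconv cells of either genotype. Of 5 T cell markers, 2 were lower in CNS Treg cells in icKO and 5 in Ctrl. Between dLN Treg and dLN Tconv cells, 3 of these 5 were lower in Treg cells in icKO and 4 in Ctrl. The part of transcripts of other cells in the CNS differences was not tested.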

How the data were processed

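RNA of Treg and Tconv cells from CNS and dLN was amplified, and libraries were made with Smartseq V4 and Nextera kits, per the labels' protocols; whether counting used strand is not given in the sources used here. Per the submitters' processing notes, FastQC, Trimmomatic, STAR 2.5.3a and RSEM 1.2.28 were used with mm10. The authors deposited expected counts and TPM per gene; RSEM estimates both, and TPM is scaled to length and library total. The deposited expected counts were rounded to whole numbers here. Python 3.11.15, pandas 2.3.3 and R 4.3.3 were used.

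The filterByExpr step left out low genes (13500 left with 25 libraries, 13054 with 26). edgeR 4.0.16 fitted 8 group means with TMM scaling and quasi-likelihood tests, and Benjamini-Hochberg adjustment ran over all tested genes. A gene was called at an adjusted p under 0.05. All adjusted p are of this kind unless DESeq2 or limma is named. SE is the log2 fold change over the root of its F statistic. The model and SE pool the spread over all groups; the common dispersion was 0.142 with 25 and 0.364 with 26 libraries. Marker sums use CPM of library total. The procedure was tested on simulated data.

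The 40 genes, the wider lists and the library left out were chosen with earlier results of these data known. The text names every called member, 7 core genes in the genotype comparisons, and up to 4 called genes of a wider list. Alternatives were the fit of 26, DESeq2 1.42.0 size factors and Wald test, limma 3.58.1 voom, no filter, the compared groups alone, a replicate block, the fit without the 5 libraries with disagreeing file names, and leaving out each library. RefSeq promoter windows (GRCm38.p6) were matched by symbol for 33 of the 40.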

Additional observations from a re-analysis of the deposited data

Results flagged for a closer look

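In the CNS Tconv groups of 4 libraries, 1 library lay far from the other 3 for 8 genes, in 8 of the 80 groups examined; chance gives about 1 in 20. Ctrl replicate 4 was high for 3 of them. Nfkbid was 47.8 CPM there and 11.7 to 15.6 CPM in the other Ctrl libraries, Traf3 was 59.3 CPM there and 33.4 to 37.6 CPM in the others, and Rel was 13.7 CPM there and 6.58 to 7.58 CPM in the others. That library is 1 of the 5 whose file names disagree with their labels. Among icKO libraries, replicate 1 was low for Nfkbib (73.8 CPM, others 94.8 to 96.9) and high for Traf6 (113 CPM, others 78.1 to 83.5). Replicate 4 was high for Birc3 (119 CPM, others 99.6 to 103) and Casp8 (268 CPM, others 214 to 223), and replicate 2 was low for Cflar (67.8 CPM, others 89.0 to 91.3). Between cell types, the log2 fold change of Rnf31 (CNS over dLN, Ctrl mice) was larger in Treg than in Tconv cells by 0.97. This was a test of the difference itself. It was 1 call of 40 (2.5%), beside 2.46% of all genes higher, and the fit of 26 called 0 of 40.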

How the results depend on the processing

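Counts of the 40 genes that passed were recomputed under 8 alternatives and with each of 25 libraries left out; the cause of each change was not tested unless fewer samples show it. With all 26 libraries the count was 0 for icKO against Ctrl in CNS Tconv, CNS against dLN in Tconv Ctrl and the CNS effect in Ctrl, 1 for CNS against dLN in Treg Ctrl, Treg icKO and Tconv icKO and for Treg against Tconv in dLN Ctrl, and 2 for Treg against Tconv in CNS Ctrl. With the compared groups alone it was 0 for icKO against Ctrl in CNS Tconv, CNS against dLN in Tconv Ctrl and the CNS effect in Ctrl, 7 for CNS against dLN in Treg icKO, and 3 and 5 for Treg against Tconv in CNS Ctrl and dLN icKO. DESeq2 gave 8 for CNS against dLN in Tconv Ctrl, 4 for Treg against Tconv in CNS icKO, 4 for the icKO effect in CNS and 2 for the CNS effect in Ctrl; its size factors inside edgeR gave 1 for Treg against Tconv in CNS icKO. Limma gave 14 for CNS against dLN in Tconv icKO and 6 for Treg against Tconv in dLN icKO. Without the 5 libraries whose file names disagree, the counts were 2 for icKO against Ctrl in CNS Tconv, 12 and 2 for CNS against dLN in Tconv Ctrl and icKO, 1 for Treg against Tconv in CNS icKO, 2 for the icKO effect in CNS and 5 for the CNS effect in Ctrl. No count moved by over 1.5 times without the filter on low counts.

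Leaving out 1 library at a time gave 0 to 6 for icKO against Ctrl in CNS Tconv and 0 to 0 in the other 3 populations. For CNS against dLN it gave 3 to 12 in Treg Ctrl, 7 to 13 in Treg icKO, 2 to 14 in Tconv Ctrl and 2 to 7 in Tconv icKO. For Treg against Tconv it gave 4 to 13 in CNS Ctrl, 0 to 5 in CNS icKO, 2 to 7 in dLN Ctrl and 0 to 3 in dLN icKO. The icKO effect in CNS had 0 to 3, that in Tconv 0 to 0, and the CNS effect in Ctrl 1 to 5.

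Of 56 called gene results, 6 kept their call with 26 libraries, while 47 no longer passed and 3 changed sign. Calls were lost by 23 with the compared groups alone, 11 without the 5 libraries, 5 without the filter, 4 with limma and 0 with DESeq2. Signs turned for some log2 fold changes. With 26 libraries they were 0.0016 for Relb in dLN Treg, -0.49 for Birc3 and 0.81 for Tnfaip3 in dLN Tconv (icKO against Ctrl), -0.028 for Tab2 in Tconv icKO (CNS against dLN), and 0.010 for Ikbke and -0.029 for Traf1 in dLN icKO (Treg against Tconv). For icKO against Ctrl, limma gave 0.029 for Traf1 in dLN Treg, and without the 5 libraries CNS Tconv had -0.21 for Nfkb2, -0.41 for Relb and -0.29 for Traf1. Leaving out 1 library moved uncalled genes across 0 in icKO against Ctrl. In CNS Treg the range was -0.25 to 0.053 for Birc3, -0.56 to 0.045 for Map3k14, -0.28 to 0.061 for Nfkbia and -0.048 to 0.070 for Traf1. In dLN Treg it was -0.088 to 0.044 for Birc3, -0.15 to 0.0043 for Nfkbia, -0.029 to 0.044 for Relb and -0.089 to 0.11 for Traf1. In CNS Tconv it was -0.046 to 0.12 for Birc3, -0.25 to 0.044 for Map3k14 and -0.0029 to 0.18 for Traf1. In dLN Tconv it was -0.059 to 0.20 for Birc3, -0.030 to 0.17 for Nfkbia, -0.046 to 0.24 for Relb, -0.15 to 0.027 for Tnfaip3 and -0.11 to 0.14 for Traf1.

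Whether libraries with the same replicate number came from the same mouse is not known. Deviations of same-numbered libraries from their group means correlated at -0.145 to 0.113, and no comparison had all its pairs over 0.1. With groups of 2 to 4 libraries, these correlations cannot decide whether samples were paired. With a replicate block the count was 8 for CNS against dLN in Tconv Ctrl, 1 for the icKO effect in CNS and 2 for the CNS effect in Ctrl, and 4 gene results lost their call. Groups of 2 to 4 libraries limit what could be detected, and depth was 12.4 to 18.5 M counts.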
